A study of Mus musculus with 6 samples.

Results

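The Jun, Fos and Batf genes encode the leucine zipper proteins that make up the transcription factor AP-1. They were chosen by symbol as Batf, Batf3, Jun, Junb, Jund, Fos, Fosb, Fosl1 and Fosl2, and 9 of 9 were found among the 37620 genes of the count table. The data are 6 RNA sequencing libraries of splenic B cells from C57Bl/6 mice aged 4 months. Every culture received 1 µg/ml of anti-CD40 and 12.5 µg/ml of IL-4. Retrovirus was added at 24 and 48 h, and cells with the mCherry of the vector were sorted at 96 h. In 3 libraries the vector was empty (pMIR), and in the other 3 it carried Sox2 (pMIR-Sox2). The labels name neither the promoter that drives Sox2 nor whether each replicate was its own animal, and p-values therefore measure the spread of these libraries alone, which may be technical. The comparison of pMIR-Sox2 with pMIR shows how AP-1 genes were expressed in activated B cells with and without Sox2.

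AP-1 is not 1 protein but a set of dimers. Jun proteins pair with each other or with Fos proteins, Batf proteins pair with Jun proteins, and the dimers bind the same short DNA elements while differing in how strongly they activate. Batf has no activation domain of its own and acts in lymphocytes together with Jun partners and the interferon regulatory factors Irf4 and Irf8. In B cells it is known for its part in class switching. Fos, Fosb, Jun and Junb are early genes whose short-lived transcripts follow MAP kinase signals, whereas Jund is known for steadier expression.

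Of the 9 genes, 5 fell with Sox2 (Batf, Batf3, Junb, Jund and Fos), 1 rose (Jun), and Fosb, Fosl1 and Fosl2 did not pass the test. The calls are from edgeR's quasi-likelihood test, at a Benjamini-Hochberg adjusted p under 0.05. All 9 were among the 12899 genes that entered it. By the same rule 43.2% of all genes were called, 23.2% as higher and 20.0% as lower. The median log2 fold change was −1.09 over the 9 genes and −0.02 over all genes tested. The ranges of the groups were apart for 6 of the 9 genes and for 56.5% of all genes tested. In each of the 3 pairs of libraries that share a number in the labels, Batf, Batf3, Junb, Jund, Fos, Fosb and Fosl1 were lower with Sox2, and Jun and Fosl2 were higher.

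Gene counts ran from 17153805 to 27692437 per library, and scaling factors from 0.969 to 1.05. CPM, counts scaled to a common library size, are relative, and in bulk libraries fewer cells that express a gene cannot be told apart from less of its RNA per cell. The Sox2 level itself, in replicates 1 to 3, was 0.738, 0.334 and 1.78 CPM with pMIR against 989, 786 and 624 CPM with pMIR-Sox2. Of the B cell markers, Ms4a1 (708 to 205 CPM on average), Cd22 (674 to 268 CPM) and Cd79b (789.7 to 347 CPM) fell and Pax5 rose (187 to 347 CPM), while Cd79a did not pass (652 and 764 CPM). The T cell list of 6 genes summed to 4.46 CPM at most in any library, with Cd3e and Cd8a at 0 in pMIR-Sox2. The neutrophil genes S100a8, S100a9 and Elane and the erythroid genes Hba-a1 and Hbb-b1 were at 0 in all libraries. Of 6 macrophage genes in the table, 4 were tested and 3 rose. The sum of the 6 was 18.4 to 21.8 CPM in pMIR and 29.8 to 36.5 CPM in pMIR-Sox2. Emr1 made up most of it (18.6 and 27.4 CPM on average) and rose. Itgam (0.558 to 3.79 CPM) and Lyz2 (0.0283 to 0.653 CPM) rose too. Lyz2 had 1, 0 and 1 counts in pMIR, so it could enter the test only through the pMIR-Sox2 libraries. Csf1r did not pass (0.645 and 0.427 CPM), and Cd14 and Fcgr1 stood at 0.157 CPM or less on average. The 3 natural killer cell genes summed to 0.148 CPM at most in pMIR and to 3.30 to 8.06 CPM in pMIR-Sox2, nearly all of it Klrd1, with Ncr1 at 0. The part of these markers in the results below was not tested.

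**Figure D1:**
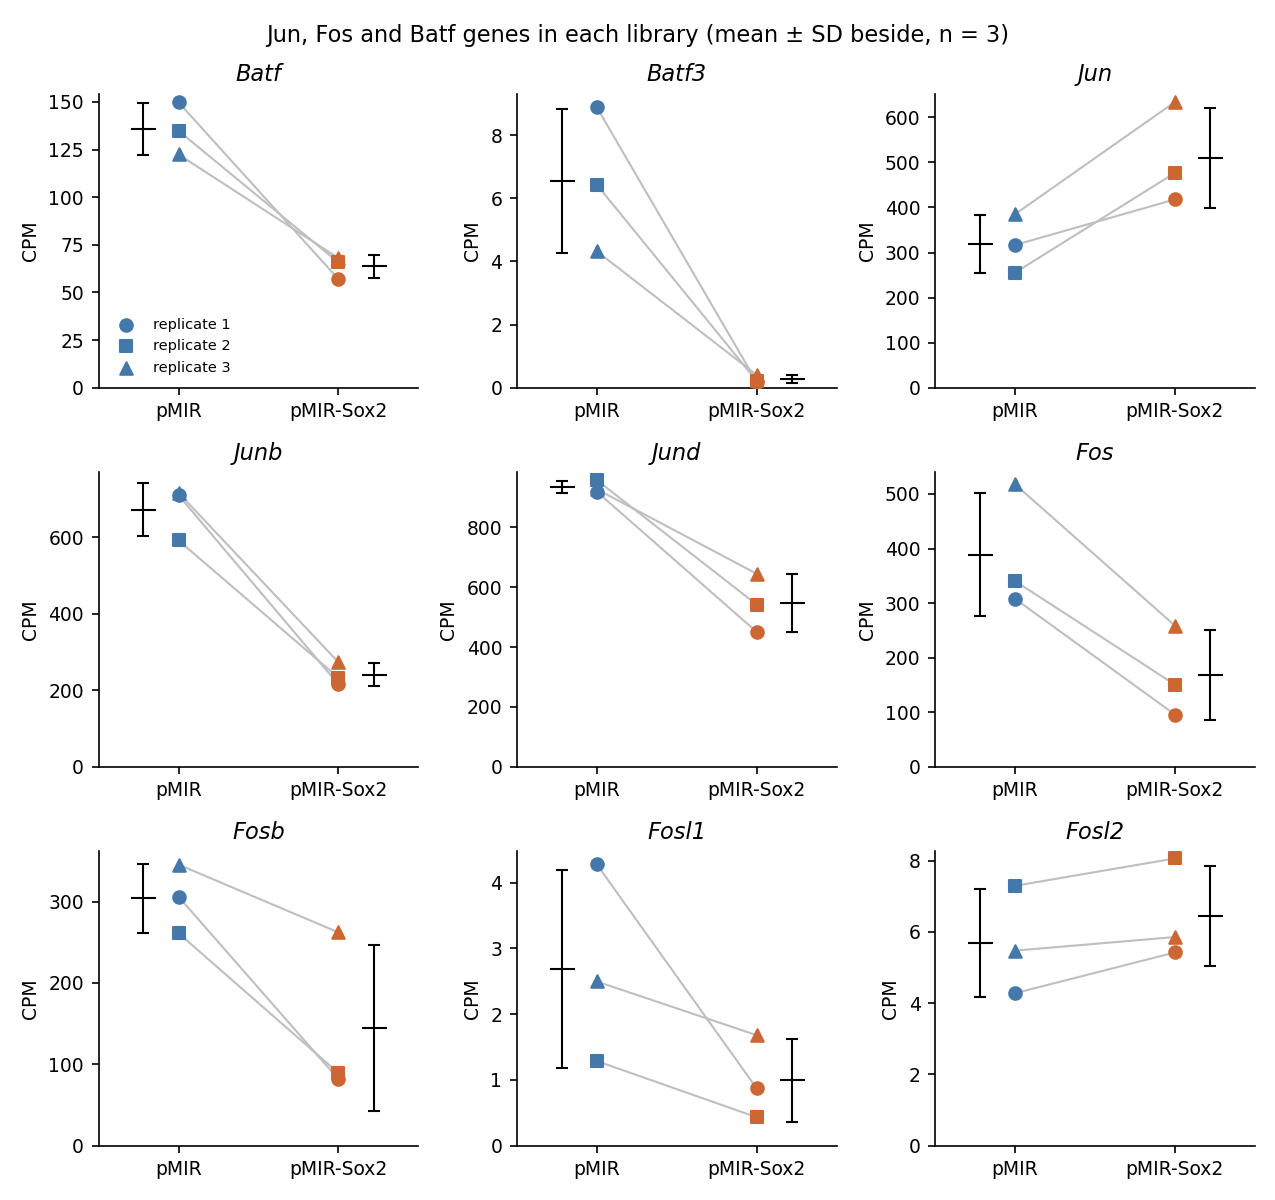
CPM of each gene (vertical axes, from 0) in the 3 pMIR and 3 pMIR-Sox2 libraries, with a symbol per replicate, grey lines between libraries of the same number, and the mean ± SD (n = 3) beside each group. Batf, Batf3, Junb, Jund and Fos were lower in each pMIR-Sox2 library than in any pMIR library, Jun was higher in each, and Fosb, Fosl1 and Fosl2 overlapped.

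The sequences before the start sites are shown for 4 genes that moved in opposite directions, Jun, which rose, and Junb, Fos and Batf, which fell. RefSeq's table for GRCm38.p6, another build than the mm9 of the counts, held a start for 8 of the 9 genes. The 250 bases before that start are given 5′ to 3′ on the strand of the gene. Jun lies at chr4:95052223-95052472 on the minus strand, Junb at chr8:84978749-84978998 on the minus strand, Fos at chr12:85473640-85473889 on the plus strand and Batf at chr12:85686470-85686719 on the plus strand. Capitals mark TGACATCA, the AP-1 type site known from the Jun promoter, TGACG, the core of the cyclic AMP response element TGACGTCA, the TATA box TATAAA and the box CCAAT. Each was searched on both strands.
Jun: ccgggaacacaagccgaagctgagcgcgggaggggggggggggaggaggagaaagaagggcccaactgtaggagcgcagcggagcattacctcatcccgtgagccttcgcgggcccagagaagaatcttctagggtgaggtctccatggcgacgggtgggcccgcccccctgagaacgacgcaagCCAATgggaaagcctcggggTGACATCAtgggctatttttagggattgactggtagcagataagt
Junb: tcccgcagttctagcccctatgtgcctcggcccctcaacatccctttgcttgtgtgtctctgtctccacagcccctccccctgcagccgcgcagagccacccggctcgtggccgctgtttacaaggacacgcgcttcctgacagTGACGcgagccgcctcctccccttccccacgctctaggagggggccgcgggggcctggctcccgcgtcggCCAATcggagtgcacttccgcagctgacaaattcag
Fos: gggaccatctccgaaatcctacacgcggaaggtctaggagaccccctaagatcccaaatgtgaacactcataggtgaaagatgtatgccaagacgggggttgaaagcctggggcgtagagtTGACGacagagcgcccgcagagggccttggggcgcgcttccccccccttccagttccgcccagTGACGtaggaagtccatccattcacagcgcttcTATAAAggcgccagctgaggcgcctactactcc
Batf: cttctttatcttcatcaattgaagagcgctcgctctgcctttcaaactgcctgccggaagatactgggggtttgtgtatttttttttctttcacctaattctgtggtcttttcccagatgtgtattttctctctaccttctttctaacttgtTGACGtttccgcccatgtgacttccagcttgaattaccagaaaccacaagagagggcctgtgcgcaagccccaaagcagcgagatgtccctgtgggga

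Of the 4 genes shown, TGACATCA was found in Jun only, from −45 to −38 before the start, and 2.84% of 32544 RefSeq windows of this length hold it. TGACG was found in Junb at −106, in Fos at −129 and −66 and in Batf at −98, and in 17.8% of all windows. Fosb also held it, at −60. Jun held no TGACG, and neither did Batf3 and Jund, which fell, or Fosl2, which did not pass. The box CCAAT (33.8% of windows) was found in Jun at −65 and in Junb at −36, and TATAAA (12.3%) in Fos at −33. The classical AP-1 site, TGACTCA or TGAGTCA (4.46% of windows), and the full element TGACGTCA (1.55%) were in none of the 8 windows. Of the short cores read by Sox proteins, ACAAT (27.4% of windows) was in none of the 8, and ACAAAG (16.5%) was in Jund alone. A match is a run of letters and not a shown binding site, and most regulatory sequence lies outside so short a window.

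The Jun genes code for the partners that every AP-1 dimer with Fos or Batf needs, and they did not move as one. Junb (ENSMUSG00000052837), the Jun protein of lymphocytes that often restrains Jun and pairs with Batf, had 709.5, 591 and 716 CPM in the pMIR libraries, in the order of replicates 1 to 3 used throughout, against 215, 233 and 273 CPM with Sox2. The highest pMIR-Sox2 library thus lay far below the lowest of pMIR. The mean fell from 672 ± 70.1 to 240.4 ± 29.6 CPM (SD, n = 3 each), a log2 fold change of −1.48 ± 0.13 (SE, edgeR adjusted p = 5.8e-05), or 2.80-fold. Jund (ENSMUSG00000071076), the member of steadier expression, stood at 919.6, 958 and 928 CPM in pMIR and at 451, 542 and 645 CPM in pMIR-Sox2. It was the most even of the 9 genes among the pMIR libraries and spread more widely with Sox2. It fell by 0.78 ± 0.14 on the log2 scale (edgeR adjusted p = 0.00212), from 935 ± 20.3 to 546 ± 97.3 CPM.

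Jun (ENSMUSG00000052684), the strongest activator of the family, went the other way. Its level was 317, 255 and 385 CPM in pMIR and 418, 477 and 634 CPM in pMIR-Sox2. The groups did not overlap, but the highest pMIR library and the lowest pMIR-Sox2 library lay close together. The mean rose from 319 ± 64.9 to 509 ± 112 CPM, 1.60-fold (log2 0.68 ± 0.19, 95% interval 0.25 to 1.10, edgeR adjusted p = 0.0172). Without pMIR replicate 1 the adjusted p was 0.0601 and without pMIR replicate 2 it was 0.0541, so that no gene of the family then passed as higher.

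Ratios between genes of the same library do not depend on how libraries are scaled. Counts of Jun per count of Junb were 0.446, 0.432 and 0.538 with pMIR and 1.94, 2.05 and 2.32 with Sox2. Junb reads thus outnumbered Jun reads in each pMIR library, and the reverse held in each pMIR-Sox2 library. The mean log2 ratio went from −1.09 ± 0.17 to 1.07 ± 0.13 (SD, n = 3), a difference of 2.16 with two-sided exact permutation p = 0.1, the smallest that 3 libraries against 3 allow (0.117 adjusted over the 7 ratios computed). Jun per Jund went from 0.344, 0.266 and 0.415 to 0.927, 0.879 and 0.982 (difference 1.46 on the log2 scale). Jund per Junb went from 1.30, 1.62 and 1.30 to 2.09, 2.33 and 2.36 (difference 0.69). In both the groups did not overlap (exact permutation p = 0.1, n = 3 each), with 0.117 adjusted over the 7 ratios.

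**Figure D2:**
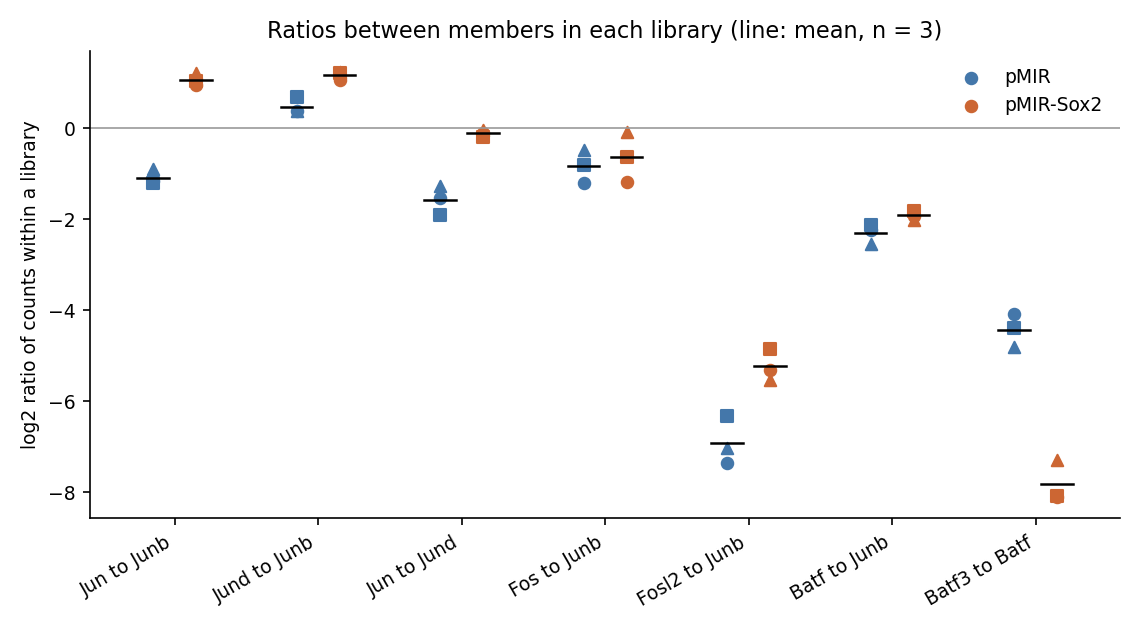
The log2 ratio of counts (vertical axis) for 7 pairs of genes in each library, with a symbol per replicate as in the plot of CPM by gene and a line for the mean of 3 libraries. The groups were apart for each ratio except Fos to Junb, and Jun to Junb crossed 0, from a mean of −1.09 in pMIR to 1.07 in pMIR-Sox2.

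Fos proteins bind DNA only with a Jun partner, and of their 4 genes Fos alone passed the test. Fos (ENSMUSG00000021250) was read at 308, 340.3 and 518 CPM in pMIR and at 95.6, 151 and 259 CPM in pMIR-Sox2. The replicate 3 libraries were the highest of both groups, and the groups did not overlap. The mean fell from 389 ± 113 to 168 ± 83.0 CPM (log2 −1.21 ± 0.33, edgeR adjusted p = 0.0173). The call ended when pMIR replicate 3 was left out (adjusted p = 0.0625), when pMIR-Sox2 replicate 2 was left out (0.0955), and when low counts were not filtered (0.162). With the replicate number as a term of the fit the adjusted p was 2.2e-06.

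Fosb (ENSMUSG00000003545), which is induced by the same signals as Fos, stood at 306, 261 and 345 CPM in pMIR and at 81.8, 89.3 and 262 CPM in pMIR-Sox2. The first and second pMIR-Sox2 libraries lay far below the pMIR range, and the third lay at its lower end. The fold change was −1.08 ± 0.40 on the log2 scale (95% interval −1.97 to −0.18) and did not pass (edgeR adjusted p = 0.0534). Without pMIR-Sox2 replicate 3 it was −1.82 with adjusted p = 2.56e-05, and by limma-voom on all libraries the adjusted p was 0.023. That library had the highest level among the pMIR-Sox2 libraries for 8 of the 9 genes (all but Fosl2), against 36.8% of all genes tested. It also had the highest level for 6 of 10 early genes induced beside Fos, and Egr1, the best known of these, stood at 960.4 CPM there against 496 and 624 CPM in the other pMIR-Sox2 libraries and 661 to 916 CPM in pMIR. Its Sox2 level, 624 CPM, was the lowest of the group. The 7 heat shock genes listed summed to 1093 CPM in that library, to 819 and 992 CPM in the other pMIR-Sox2 libraries and to 1070 to 1215 CPM in pMIR. Whether any of these has a part in the Fosb value was not tested.

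Fosl1 (ENSMUSG00000024912) and Fosl2 (ENSMUSG00000029135) encode Fra-1 and Fra-2, the Fos proteins without a strong activation domain, and both were scarce. Fosl1 had 116, 27 and 52 counts in pMIR and 19, 8 and 29 in pMIR-Sox2, or 4.28, 1.29 and 2.50 CPM against 0.873, 0.433 and 1.68 CPM. The groups overlapped although each pair of libraries went down. The fold change was −1.46 ± 0.53 on the log2 scale with edgeR adjusted p = 0.0501. It passed with the replicate number in the fit (−1.46, adjusted p = 0.00196) and by the DESeq2 Wald test (0.0217). Without pMIR replicate 2 the value was −1.79 (adjusted p = 0.0142), without pMIR-Sox2 replicate 3 it was −2.02 (0.0165), and the smallest value with 1 library left out was −0.94. The pMIR-Sox2 counts of Fosl1 alone would not have passed the filter on low counts, so its fall is not independent of that filter. With no filter its log2 fold change was −1.45 (edgeR adjusted p = 0.115). Fosl2 stood at 4.28, 7.29 and 5.47 CPM in pMIR and at 5.42, 8.06 and 5.85 CPM in pMIR-Sox2. Its change of 0.19 ± 0.24 had a 95% interval from −0.36 to 0.73 (edgeR adjusted p = 0.562), so that a fall as large as that of Junb lies outside the interval.

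Batf and Batf3, the small proteins made of little more than a leucine zipper, both fell. Batf (ENSMUSG00000034266) was read at 149.8, 135 and 122 CPM in pMIR and at 57.1, 65.8 and 68.0 CPM in pMIR-Sox2. Both groups were narrow and lay far apart. The mean fell from 136 ± 13.7 to 63.6 ± 5.80 CPM, a log2 fold change of −1.09 ± 0.11 (edgeR adjusted p = 0.000137), or 2.13-fold. Batf3 (ENSMUSG00000026630), best known from the dendritic cells that cross-present antigen, had 241, 135 and 90 counts in pMIR and 4, 4 and 7 in pMIR-Sox2. It was thus close to unread with Sox2, where its 15 counts have an exact Poisson interval of 8.395 to 24.7 (counting error only). It fell from 6.55 ± 2.29 to 0.269 ± 0.120 CPM, 24.5-fold (log2 −4.62 ± 0.41, 95% interval −5.53 to −3.70, edgeR adjusted p = 5.63e-05), and 99.1% of genes tested had a smaller change in either direction. Its pMIR-Sox2 counts alone would not have passed the filter on low counts, so it could enter the test only as a gene higher in pMIR. Its fall and its rank are therefore not independent of that filter. With no filter the log2 fold change was −4.60. Of the dendritic cell genes listed, Xcr1, Clec9a and Siglech were at 0.182 CPM or less on average in both groups, whereas Zbtb46 (22.2 to 5.82 CPM) and Flt3 (13.7 to 6.08 CPM) fell. Itgax stood at 0.617 and 1.27 CPM and did not pass (log2 1.04, edgeR adjusted p = 0.152). The list summed to 33.3 to 43.3 CPM in pMIR and to 11.99 to 15.2 CPM in pMIR-Sox2, and its part in the Batf3 value was not tested.

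Ratios were also taken for Batf to its partner Junb and for Batf3 to Batf. Counts of Batf per count of Junb were 0.211, 0.228 and 0.171 in pMIR and 0.265, 0.283 and 0.249 in pMIR-Sox2, a log2 difference of 0.39 (exact permutation p = 0.1, n = 3 each). Batf3 per Batf went from 0.0594, 0.0479 and 0.0355 to 0.00362, 0.0037 and 0.00639, a log2 difference of −3.40 (exact permutation p = 0.1, n = 3 each). Fos per Junb overlapped between the groups, with 0.434, 0.576 and 0.723 in pMIR and 0.444, 0.647 and 0.947 in pMIR-Sox2 (exact permutation p = 0.6, n = 3 each). Within the same-numbered pairs it was higher with Sox2 in 3 of 3, by 0.03, 0.17 and 0.39 on the log2 scale (exact sign-flip permutation p = 0.25, the smallest that 3 pairs allow). Its mean log2 difference of 0.20 became −0.08 when pMIR-Sox2 replicate 3 was left out and its pMIR pair was kept. Fosl2 per Junb was 1.68 higher on the log2 scale with Sox2, with no overlap (exact permutation p = 0.1, n = 3 each).

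**Figure D3:**
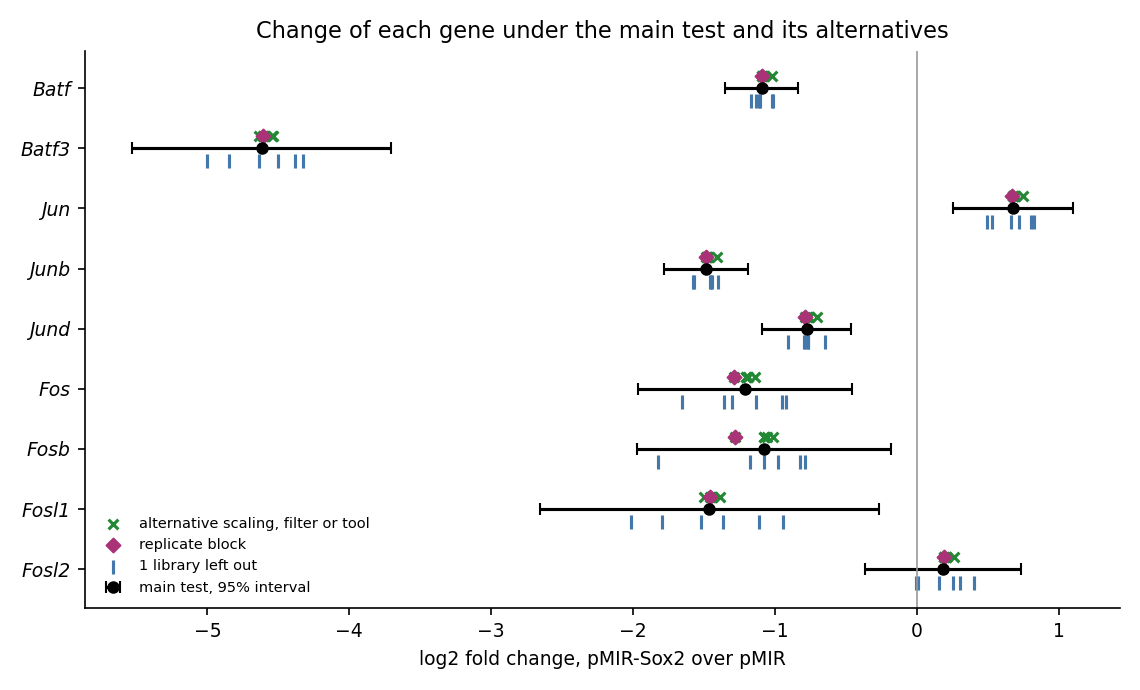
The log2 fold change of pMIR-Sox2 over pMIR (horizontal axis) for each gene, with the main edgeR test and its 95% interval as a black point and bar, crosses for other scalings, filters or tools, a diamond for the fit with the replicate number, and ticks for each fit with 1 library left out. Batf, Batf3, Junb and Jund stayed below 0 in each fit, Jun stayed above 0, and only Fosl2 had a value on the other side of 0 (−0.0048 without pMIR-Sox2 replicate 2).

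Levels can be compared between genes only per length. CPM were therefore divided by the exon length of each gene in kb, from GENCODE M21 on GRCm38. In pMIR the order was Jund (561 ± 12.2 CPM per kb), Junb (292 ± 30.5), Fos (165 ± 48.0), Jun (100.03 ± 20.3), Batf (96.5 ± 9.75) and Fosb (48.7 ± 6.76), then far below Batf3 (4.10 ± 1.43), Fosl1 (1.32 ± 0.740) and Fosl2 (0.587 ± 0.157; SD, n = 3 for each). Jun and Batf were not apart beyond their spread, nor were Fosl1 and Fosl2. In pMIR-Sox2 the order was Jund (327 ± 58.3), Jun (159.8 ± 35.04), Junb (104 ± 12.9), Fos (71.5 ± 35.3), Batf (45.3 ± 4.13) and Fosb (23.1 ± 16.3), with Fosl2 (0.666 ± 0.146), Fosl1 (0.490 ± 0.311) and Batf3 (0.168 ± 0.0750) last. There the libraries of Fos overlapped those of Junb, Batf and Fosb, and those of Batf overlapped those of Fosb. Fosl1 overlapped both Fosl2 and Batf3, so the order of the last places is not separated beyond the spread, although Fosl2 and Batf3 did not overlap. By this length Jun moved from the fourth place to the second, above Junb in each pMIR-Sox2 library.

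Summed over the 9 genes, the level per kb was 1254, 1199 and 1355 with pMIR and 590.3, 702 and 906 with Sox2. The mean went from 1269 ± 79.1 to 733 ± 160.3 CPM per kb, with no overlap between the groups (exact permutation p = 0.1, n = 3 each). Jun made up 7.84 ± 1.12% of that sum in pMIR and 21.8 ± 0.462% in pMIR-Sox2. Junb went from 23.0 ± 1.59% to 14.5 ± 1.38%, and the groups did not overlap in either (exact permutation p = 0.1, n = 3 each). The share of Jund was 44.3 ± 3.44% and 44.9 ± 1.96% (exact permutation p = 0.8, n = 3 each). By family, the 3 Jun genes summed to 953 ± 38.6 and 592 ± 105.6 CPM per kb, a ratio of 0.621. The ratio was 0.444 for the 4 Fos genes (216 ± 53.2 to 95.8 ± 51.4) and 0.451 for the Batf pair (101 ± 11.2 to 45.4 ± 4.18). Each had exact permutation p = 0.1 with n = 3 per group.

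**Figure D4:**
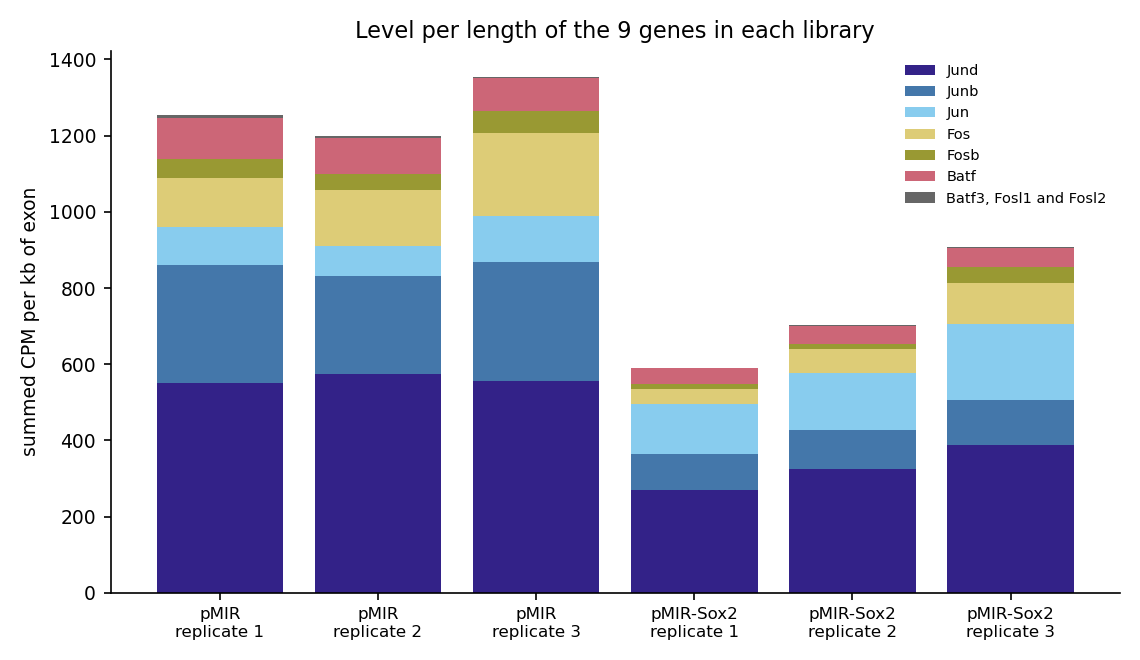
The level per kb of exon (vertical axis, CPM per kb) of the 9 genes stacked in each library, with Batf3, Fosl1 and Fosl2 drawn together because they are too low to see apart. The stack was 1199 to 1355 in pMIR and 590.3 to 906 in pMIR-Sox2, and the Jun segment grew from a mean of 100.03 to 159.8.

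These values carry a limit of counting. The strand setting is not given in the sources used here, and 4 of the 9 genes share exon with a gene on the other strand in GENCODE M21. Without strand the reads of such a pair cannot be told apart. Fosl1 shares 1163 of its 2033 bases with Ccdc85b, whose GENCODE M21 identifier is not among the genes counted. Jund shares 877 of its 1668 bases with Gm11175, which fell by 0.81 on the log2 scale, close to Jund. Junb shares 173 bases with Prdx2 and Jun 232 bases with an antisense gene listed as BC042782, and both of these rose (log2 0.32 and 1.08). BC042782 had 0.958 CPM on average in pMIR and 2.05 CPM in pMIR-Sox2. Their part in the values of the 4 genes was not tested.

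The proteins that work with the family changed with it in part. Irf4, the factor that binds beside Batf and Jun on composite elements, was read at 658, 341 and 417 CPM in pMIR and at 143, 126 and 159.7 CPM in pMIR-Sox2. It fell by 1.72 ± 0.23 on the log2 scale (edgeR adjusted p = 0.000494). Irf8, its relative, fell from 557 ± 63.4 to 394 ± 50.03 CPM (−0.50, edgeR adjusted p = 0.015). The partner pair counted 1 fall in place of 2 without pMIR replicate 2 or 3. Of 3 NFAT genes, whose proteins bind next to AP-1 in activated lymphocytes, Nfatc1 (−0.61, edgeR adjusted p = 0.00107) and Nfatc2 (−0.46, edgeR adjusted p = 0.0208) fell, and Nfatc3 did not pass (0.07). With library totals as the only scaling, or without pMIR replicate 1, pMIR replicate 2, pMIR-Sox2 replicate 2 or pMIR-Sox2 replicate 3, 1 of these fell.

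Other leucine zipper genes that share partners or sites with the family went both ways, with 3 of 11 tested rising, 3 falling and 5 not passing (median 0.09). Bach1 and Bach2, repressors that bind AP-1 like sites, rose, Bach1 from 13.6 ± 0.899 to 27.3 ± 1.78 CPM (1.003, edgeR adjusted p = 0.000238) and Bach2, a guardian of the B cell state, from 78.1 ± 4.58 to 111 ± 8.997 CPM (0.51, edgeR adjusted p = 0.00355). Jdp2, a repressor that pairs with Jun, fell from 16.6 ± 4.98 to 6.27 ± 1.60 CPM (−1.40, edgeR adjusted p = 0.00232). The falls numbered 1 without pMIR replicate 1 or without pMIR-Sox2 replicate 2.

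Of the MAP kinase cascades that switch on Fos and Jun, 3 of 18 tested genes rose, 3 fell and 12 did not pass (median −0.09). Map3k5, the stress kinase ASK1, fell from 73.4 ± 5.17 to 33.6 ± 2.33 CPM (−1.13, edgeR adjusted p = 7.44e-05), and Map3k8, the kinase Tpl2, fell (−0.81, edgeR adjusted p = 0.000331). Mapk9, which encodes the Jun kinase JNK2, rose from 52.3 ± 0.322 to 121 ± 26.1 CPM (1.21, edgeR adjusted p = 0.000367), while its relative Mapk8 stood at 34.4 ± 0.189 and 38.3 ± 3.08 CPM and did not pass. The list's rises numbered 5 with the replicate number in the fit. Of 11 factors that act at the Fos and Jun promoters, 3 fell, 1 rose and 7 did not pass (median −0.14), with 5 falls in that same fit. Srf, the serum response factor, fell from 146 ± 19.1 to 97.3 ± 4.67 CPM (−0.59, edgeR adjusted p = 0.00327), Mef2d fell (−0.91, edgeR adjusted p = 0.000331) and so did Mef2a (−0.41, edgeR adjusted p = 0.011). The single gene that rose was Mkl2 (0.41, edgeR adjusted p = 0.0179), and no gene of the list rose when pMIR replicate 1, pMIR replicate 3 or pMIR-Sox2 replicate 1 was left out.

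Of 13 genes that hold AP-1 in check, 7 fell, 2 rose and 4 did not pass (median −0.79, against −0.02 for all genes). The phosphatases of MAP kinases Dusp4 (120.4 ± 22.2 to 33.0 ± 2.37 CPM, −1.87, edgeR adjusted p = 3.74e-05), Dusp2 (135 ± 18.2 to 42.7 ± 4.87 CPM, −1.66, edgeR adjusted p = 4.04e-05) and Dusp5 (189 ± 30.1 to 60.1 ± 10.6 CPM, −1.66, edgeR adjusted p = 0.000103) fell. These are induced by the same signals as Fos. Dusp6, a phosphatase of ERK, rose, from 27.3 ± 5.76 to 80.9 ± 20.8 CPM (1.57). In this list 1 gene rose without pMIR replicate 1, pMIR replicate 3 or pMIR-Sox2 replicate 1. Of 9 tested early genes induced beside Fos, 4 fell and 0 rose in edgeR (median −0.13), with 0 higher at an unadjusted p under 0.05, in DESeq2 or in limma-voom. Nr4a1 (−1.82), Egr2 (−1.78) and Egr3 (−1.77) fell, while Egr1 did not pass (758 ± 138 and 694 ± 239.7 CPM).

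Of 19 genes with well studied AP-1 sites, 11 passed the filter on low counts, of which 6 fell, 1 rose and 4 did not pass (median −0.55). Tnf fell from 14.2 ± 7.33 to 5.01 ± 1.16 CPM (−1.50, edgeR adjusted p = 0.00799) and Tgfb1 from 229 ± 8.72 to 156 ± 14.8 CPM (−0.55, edgeR adjusted p = 0.00276). Spp1, osteopontin, rose from 4.38 ± 1.62 to 30.7 ± 13.9 CPM (2.81, edgeR adjusted p = 0.000413). A second gene of the list rose with no filter, in DESeq2, with the replicate number in the fit, and without pMIR replicate 2, pMIR replicate 3, pMIR-Sox2 replicate 2 or pMIR-Sox2 replicate 3. Of 11 genes tied to Batf in lymphocytes, 7 were tested, of which 3 rose, 2 fell and 2 did not pass (median 0.08). Ctla4, an inhibitory receptor, fell from 24.3 ± 12.3 to 4.46 ± 2.16 CPM (−2.45, edgeR adjusted p = 0.00228).

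**Figure D5:**
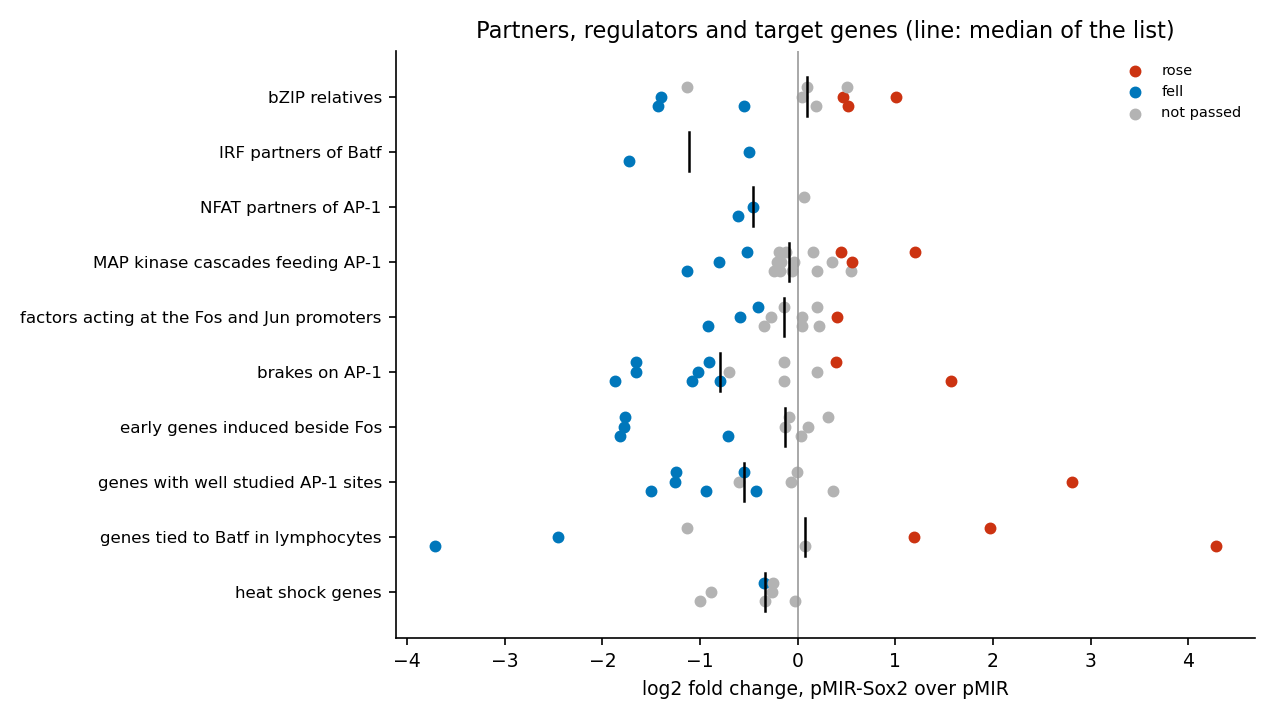
The log2 fold change (horizontal axis) of each tested gene in the 10 lists of partners, regulators and target genes, coloured by whether it rose, fell or did not pass, with a line at the median. Both IRF partners fell, and the brakes on AP-1 had a median of −0.79. The MAP kinase cascades had a median of −0.09, with genes from −1.13 (Map3k5) to 1.21 (Mapk9).

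The genes whose pattern over the 6 libraries came closest to each member were found by the root mean square difference of log2 CPM. Each gene's own mean was taken off first. The 9 members, Sox2, predicted genes, pseudogenes and immunoglobulin segments were left out of the search. For Batf these were Gimap5 (0.0521), Rnf19b (0.0559) and Map3k5 (0.0891), all lower with Sox2. Cxcr5 (0.0752), Gpr132 (0.0946) and Dusp2 (0.0946) came closest to Junb, and Nsdhl (0.0278), Zfp850 (0.0388) and Impa2 (0.0479) to Jund. For Jun they were Hist1h3c (0.122), Slc43a1 (0.125) and Zfp623 (0.148). Slc1a4 (0.106), Vegfa (0.124) and Trib3 (0.160) came closest to Fos, and Ppap2a (0.171), Fam83f (0.204) and Plek (0.207) to Fosb. For Batf3, which had the widest range of the 9 genes, they were Il1r2 (0.408), Parm1 (0.409) and Mylk (0.432). The measure grows with a gene's range, so it does not rank the members. Fosl1 was followed by Cd5l (0.279), Nefh (0.299) and Glt28d2 (0.310), and Fosl2 by Susd3 (0.0846), Tbx6 (0.0882) and Senp7 (0.0899). No gene was named for more than 1 of the 9. This is a description only, since members could not be named for one another and few genes were picked from many.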

How the data were processed

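The authors deposited a table of unnormalized read counts for the 6 libraries, with Ensembl identifiers as rows. The submitters' processing notes name mm9, HTSeq 0.6.1p1, Bowtie2 2.2.2, TopHat2 2.0.11, Trimmomatic 0.32 and SAMtools 0.1.19, without their roles. Strand setting and annotation release: not given in the sources used here. Rows that name no gene held 46.77 to 48.05% of each library's total and stayed out.

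The test was edgeR's robust quasi-likelihood test (version 4.0.16, R 4.3.3) after filterByExpr with the group and TMM scaling, with Benjamini-Hochberg adjustment over 12899 genes. SE is the log2 fold change over the square root of F. Alternatives were library totals, DESeq2's size factors, no filter, DESeq2 1.42.0, limma-voom (limma 3.58.1), the replicate block and leaving out each library. Same-numbered libraries deviated together from their group means (correlations 0.242, 0.359 and 0.189 for replicates 1 to 3), so the labels' numbers, 8, 9 and 12 in the descriptions, were taken to pair them. The labels state no blocked design, so the main test held the group alone and the replicate block was kept as an alternative. The test was checked on simulated data with known changes. It recovered 17 of 50 genes changed 1.5-fold, 37 of 50 changed 2-fold, 49 of 50 changed 4-fold and 50 of 50 changed 8-fold. There were 10 false calls among 12756 genes. Fewer genes were changed there than were called in these data. Ratios had 0.5 added to each count. Of 37620 identifiers, 32897 were in GENCODE M21, used for exon length and overlap only.

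The members and lists were chosen with earlier results of these data known. The text names the 9 members, up to 3 genes of smallest adjusted p per list and the 3 closest in pattern to each member; Egr1, Mapk8, Nfatc3, Mkl2, Dusp6, Atf3, the marker genes and the genes that share exon were named after their values were seen. Some genes that the rule or the marker lists hold are not reported here.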

Additional observations from a re-analysis of the deposited data

How the results depend on the processing

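Over the 12 alternative fits, Batf, Batf3, Junb and Jund kept their direction and their call in each. Of 108 values over the 9 genes, 96 kept both, 5 lost the call, 6 gained it and 1 changed sign. With 1 library left out, the log2 fold change ranged from −1.17 to −1.01 for Batf, −5.00 to −4.33 for Batf3, −1.58 to −1.40 for Junb, −0.91 to −0.65 for Jund, 0.50 to 0.83 for Jun, −1.65 to −0.92 for Fos, −1.82 to −0.79 for Fosb, −2.02 to −0.94 for Fosl1 and −0.0048 to 0.40 for Fosl2. The value −0.0048 was that of Fosl2 without pMIR-Sox2 replicate 2, and the Fos to Junb difference ran from −0.077 without pMIR-Sox2 replicate 3 to 0.47. Fos was −1.19 with no filter, which ended its call. Fosb was −1.28 by limma-voom, and Fosl1 −1.44 in DESeq2 and −1.46 with the replicate block, each then past the threshold. The replicate block changed no other call among the 9 genes. For the 7 ratios, differences within pairs, a comparison added after the data were seen, gave the same means, with exact sign-flip permutation p = 0.25 for each, the smallest that 3 pairs allow. The number of members that rose ran from 0 to 1 and the number that fell from 4 to 7 with 1 library left out.

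Among the lists, 1 NFAT gene fell and no heat shock gene did with library totals only. With the replicate block 5 MAP kinase genes rose, 5 promoter factors and 5 heat shock genes fell, and 2 genes with AP-1 sites rose, as 2 did with no filter and in DESeq2. With 1 library left out, falls ran from 1 to 4 among leucine zipper relatives, 1 to 2 among IRF partners, 1 to 2 among NFAT genes and 0 to 2 among heat shock genes, and rises from 0 to 1 among promoter factors, 1 to 2 among brakes and 1 to 2 among genes with AP-1 sites. The cause of these differences was not tested.

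With the longest transcript as length, Batf stood at 142 CPM per kb in pMIR and 66.6 in pMIR-Sox2, Junb at 372 and 133, Fosl2 at 0.869 and 0.986, and in pMIR Batf3 at 5.90 and Fosb at 80.4. Jun, at 100.03 in pMIR, kept its value and thus stood below Batf there, a place lower than by exon length. All genes split into 2991 that rose and 2577 that fell, and into 3415 and 2059 with library totals only. The low counts of Batf3 with Sox2 and of Fosl1 limit what their values show.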

Other observations

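The pairs of libraries differed in how far the genes went down, and their Sox2 levels differed too. From the pair with the highest Sox2 level to that with the lowest (989, 786 and 624 CPM), the log2 difference was −1.39, −1.04 and −0.85 for Batf, −5.60, −4.89 and −3.41 for Batf3, and −1.03, −0.82 and −0.52 for Jund. For Fos it was −1.69, −1.18 and −1.001, for Fosb −1.90, −1.55 and −0.40, and for Fosl1 −2.29, −1.57 and −0.57. Junb (−1.72, −1.35 and −1.39) and Jun (0.40, 0.90 and 0.72) did not follow the order of Sox2. Fosl2 (0.34, 0.14 and 0.10) ran in the opposite direction, from the largest rise to the smallest. The order from the most negative to the least was thus met by 6 of the 9 genes. It was met by 32.6% of all genes that fell and by 19.6% of all genes tested. Genes of the opposite order are not counted here. With 3 pairs this is a description, and the part of the Sox2 level in it was not tested. The order of Sox2 is also the order of the replicate numbers, so Sox2 level and replicate cannot be told apart here.

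Of 7 heat shock genes tested, 1 fell and 0 rose in edgeR, with 0 higher at an unadjusted p under 0.05, in DESeq2 or in limma-voom, and with a median log2 fold change of −0.33. Hspe1, a mitochondrial chaperone, fell from 196 ± 12.6 to 155 ± 17.9 CPM (−0.34, edgeR adjusted p = 0.0353), and 5 fell with the replicate block. Atf3, a stress responsive partner of Jun, fell (−1.43, edgeR adjusted p = 0.0441). It stood at 46.0, 47.0 and 54.97 CPM in pMIR and at 5.42, 14.9 and 35.1 CPM in pMIR-Sox2 replicates 1 to 3. Its highest value among the pMIR-Sox2 libraries was in replicate 3, as for Fos and Fosb.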
